A study of Mus musculus with 6 samples.

Results

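The mouse mitochondrial genome encodes 37 genes, and all 37 were listed in a gene-level RNA-seq table of 54532 genes, where they were found by symbols that begin with mt-. They comprise 13 mRNAs, 2 rRNAs and 22 tRNAs. RNA came from cells labelled bone marrow-derived macrophages (BMDMs) that had shared a culture with the ovarian cancer line ID8, itself of mouse origin. The study's methods call these co-cultured cells bone marrow-derived monocytes and describe no step that turns them into macrophages. Before that co-culture, ID8 was exposed either to 40 µM of the DNA-crosslinking platinum drug cisplatin (3 libraries) or to phosphate-buffered saline alone (PBS, 3 libraries). BMDMs were present in both groups, so the groups differed in what the ID8 cells had been given, and neither group was BMDMs alone. The study's methods state that monocytes were collected after the co-culture and do not describe how. Whether ID8 cells were removed before RNA was extracted was not given in the sources used here. Mitochondrial RNA of ID8 cells and of BMDMs therefore cannot be told apart. Per the study's methods, the marrow cells came from C57BL/6 mice aged 6–8 weeks, and how long the co-culture lasted was not given in the sources used here. The methods speak of biological replicates without saying whether each library had its own animal or culture, so p-values measure the spread between these libraries, part of which may be technical.

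The mitochondrial genome is a compact circle with almost no space between its genes. Both of its strands are transcribed into long RNAs that hold many genes, and enzymes cut the tRNAs out of them, which frees the mRNAs and rRNAs on either side. The mRNAs encode core subunits of the respiratory chain (complexes I, III and IV) and of ATP synthase, the rRNAs and tRNAs serve the mitochondrial ribosome, and every other mitochondrial protein is encoded in the nucleus. Mouse nuclear chromosomes also carry old insertions of mitochondrial sequence. Macrophages are known to change their use of oxidative phosphorylation when they are activated.

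The table gives FPKM, a level in sequenced fragments corrected for gene length and library depth. Between 15776238 and 17924686 reads per library could be recovered from it. The labelled cell type was checked against its markers: 8 of 10 macrophage markers reached 1 FPKM in every library, and so did 11 of 15 ID8, epithelial and mesothelial genes, whereas Krt7, Epcam, Lrrn4 and Igfbp5 stayed under 1 FPKM in every library and were not tested. These 8 macrophage markers were higher in the cisplatin libraries, where at a threshold of 0.05 on the adjusted p 32.9% of all tested genes rose and 35.1% fell. The other two, Mertk and Mrc1, were under 1 FPKM in every PBS library and were tested only because of their level in the cisplatin libraries. All 10 summed to 1756–1780 FPKM in the PBS libraries and 4456–4624 FPKM in the cisplatin libraries. Of the 11 tested ID8, epithelial and mesothelial genes, 10 were lower and Cdh1 was higher, and all 15 summed to 1346–1444 FPKM against 249–270 FPKM. Neutrophil genes were higher in 7 of 8 (sum 4584–4740 FPKM against 8252–8528 FPKM) and lymphocyte genes in 5 of 6 tested (114–123 FPKM against 269–275 FPKM), whereas none of the 4 tested erythroid genes passed. The Y-linked gene Ddx3y was at 7.60–8.64 FPKM in the PBS libraries and 18.6–19.9 FPKM in the cisplatin libraries, and Xist was at 39.0–48.8 FPKM and 7.57–7.94 FPKM. The part of these marker shifts in the results that follow was not tested. In such bulk libraries, fewer cells of a type and less RNA per cell cannot be told apart.

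Part of the mitochondrial genome has a near-identical copy on chromosome 1, and the sequences are given first because they bear on how each gene could be counted. In the GENCODE M21 annotation of GRCm38, 7 unprocessed pseudogenes lay side by side on the minus strand between positions 24611535 and 24616197. They matched mt-Nd4, mt-Nd4l, mt-Nd3, mt-Co3, mt-Atp6, mt-Co2 and mt-Co1 in part or in whole. The copies of mt-Nd4, mt-Nd4l, mt-Co3, mt-Atp6 and mt-Co2 had no mismatch over the aligned bases. The copy of mt-Nd3, Gm28438, differed at 1 of 345 aligned bases (T3C, counted from the first base of mt-Nd3). The start of both is shown with the differing base in capitals, as chrMT:9459-9518 on the plus strand and chr1:24613060-24613119 on the minus strand of GRCm38.
mt-Nd3: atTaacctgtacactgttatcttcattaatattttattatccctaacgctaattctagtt
Gm28438: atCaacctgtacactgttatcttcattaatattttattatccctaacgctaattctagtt
The copy of mt-Co1, Gm29216, covers only its 3′ portion and had 6 mismatches over 492 aligned bases (T1056A, C1057T, A1059G, A1060G, C1062A and A1066T, counted from the first base of mt-Co1), all of them at the start of the match. That start is shown for contrast, as chrMT:6381-6440 on the plus strand and chr1:24616138-24616197 on the minus strand, with the differing bases in capitals.
mt-Co1: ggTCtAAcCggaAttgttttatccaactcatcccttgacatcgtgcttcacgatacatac
Gm29216: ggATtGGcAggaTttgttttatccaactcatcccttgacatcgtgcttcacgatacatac

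Sharing was measured as the percentage of all windows of 100 bases in a gene that occur unchanged in another annotated transcript. It was 99.5% for mt-Co2, 99.5% for mt-Atp6, 99.9% for mt-Co3, 97.6% for mt-Nd3 and 98.5% for mt-Nd4l. It was 60.8% for mt-Nd4, 30.8% for mt-Co1 and 3.19% for mt-Nd2. The rRNAs and mt-Nd1, mt-Nd5, mt-Nd6, mt-Cytb and mt-Atp8 shared no window of this length with an annotated transcript. Sequence outside annotated transcripts was not searched, so an unannotated copy of any of them was not looked for here. The 5 mRNAs above 97% were listed at 7.78 to 125 FPKM in single libraries, whereas 5 of the 6 mRNAs under 5% were listed at 542 to 2580.3 FPKM. The other, mt-Atp8, shared no window with an annotated transcript and was at 0.288 to 1.11 FPKM, below all of them. It lies between mt-Co2 and mt-Atp6, which both have a chromosome 1 copy. The copy of mt-Atp6 ends at position 24614651 and that of mt-Co2 starts at 24614885, and the stretch between them was not searched. Whether a copy there bears on the level of mt-Atp8 was not tested. How the authors' counting treated reads with several matches was not given in the sources used here, so the levels of mt-Co2, mt-Co3, mt-Atp6, mt-Nd3 and mt-Nd4l cannot be set against those of the other mRNAs.

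**Figure D1:**
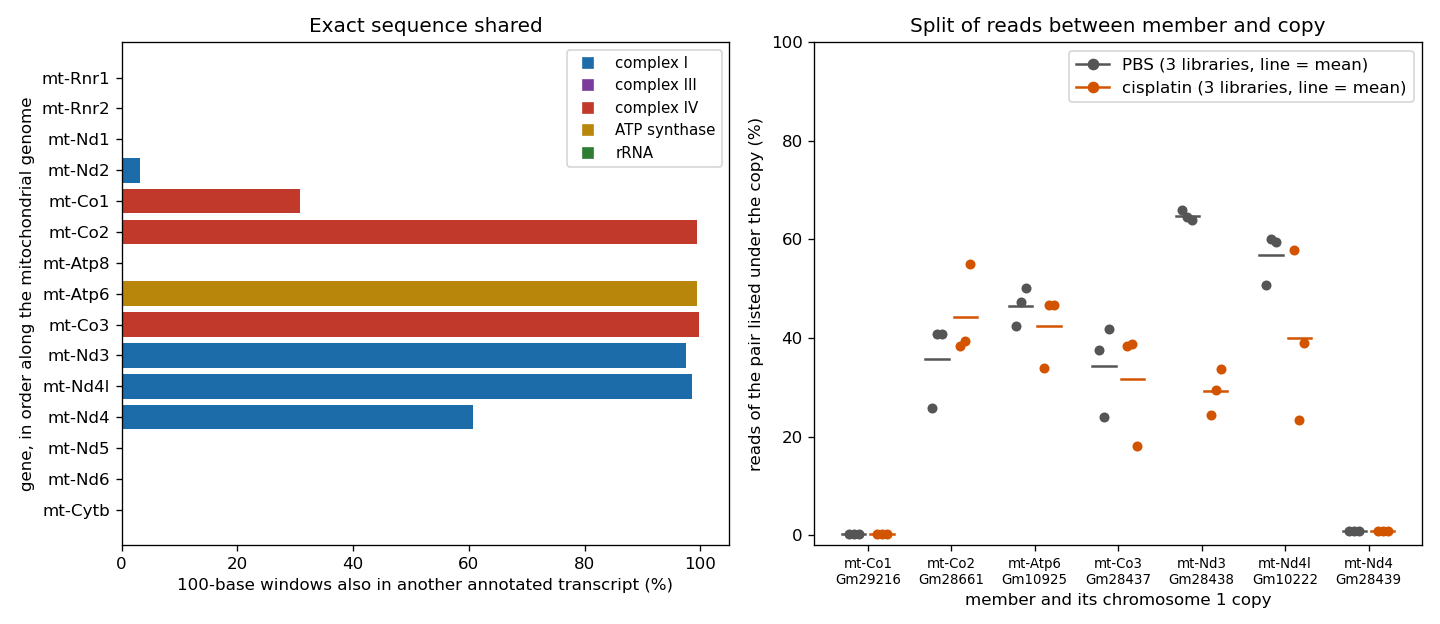
The left panel gives, for each mRNA and rRNA, the percentage of its 100-base windows that also occur in another annotated transcript (bars, coloured by class), and the right panel gives the percentage of reads of each pair that were listed under the chromosome 1 copy (points are libraries, lines are group means). The bars of mt-Co2, mt-Atp6, mt-Co3, mt-Nd3 and mt-Nd4l reach 97.6% or more, and the mt-Nd3 pair is the one whose PBS points (64.0–66.0%) all lie above its cisplatin points (24.3–33.7%).

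Of the 37 genes, 31 reached 1 FPKM in at least 3 libraries and were tested, together with every other gene that did so, by limma on log2(FPKM + 1). Here and below, an adjusted p is limma's p with Benjamini-Hochberg adjustment over all 13441 tested genes, and a log2 fold change is cisplatin against PBS on that scale. At an adjusted p under 0.05, 11 mitochondrially encoded genes were higher in the cisplatin libraries, where 32.9% of all tested genes were, and 3 were lower, where 35.1% of all tested genes were. The other 17 did not pass. With a log2 fold change of at least 1 also required, 3 were higher (mt-Nd3, mt-Te and mt-Tg), against 4.67% of all tested genes, and 0 were lower, against 11.3%, the lowest log2 fold change being -0.97. The groups did not overlap for 14 of the 31, against 72.4% of all tested genes. The median log2 fold change was 0.32 over the 31 genes and 0.46 over the 12 tested mRNAs, beside -0.0011 over all tested genes. These medians depend on how the deposited FPKM had been scaled. With scaling by the total of recovered reads, the median was 0.073 over all tested genes and 0.55 over the mRNAs. When libraries were scaled by 4 Y-linked genes instead, the median of all genes moved to -0.83 and that of the mRNAs to -0.53, which turned the sign of the mRNA median but left it 0.30 above all genes.

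**Figure D2:**
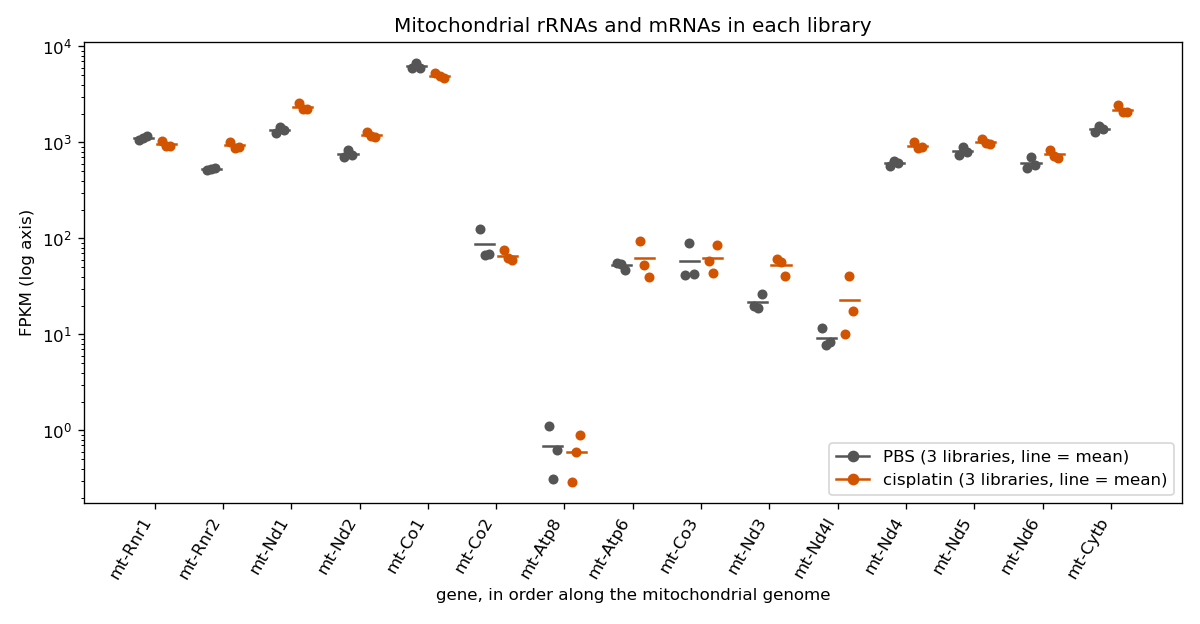
Points are the FPKM of single libraries on a log axis for the 2 rRNAs and 13 mRNAs in genome order, and lines are the means of 3 libraries. The cisplatin points lie above the PBS points for mt-Rnr2, mt-Nd1, mt-Nd2, mt-Nd3, mt-Nd4, mt-Nd5 and mt-Cytb and below them for mt-Rnr1 and mt-Co1, on the deposited scale (with scaling by Y-linked genes, all of these but mt-Nd3 have a negative fold change).

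The mRNAs for complex I, the NADH dehydrogenase that feeds electrons into the respiratory chain, were the class with the most rises: 6 of 7 were higher in the cisplatin libraries, where 32.9% of all tested genes were, and none lower, a direction held by all 7 on every scaling tried except that by Y-linked genes, under which 5 turned negative. mt-Nd1, a membrane subunit next to the quinone site (positions 2751 to 3707), was at 1252, 1432 and 1338 FPKM in PBS libraries 1 to 3 and at 2580.3, 2239 and 2229 FPKM in cisplatin libraries 1 to 3. Every cisplatin library lay far above every PBS library. The means were 1341 ± 90.1 and 2349.5 ± 199.9 FPKM (SD, n = 3 each), a 1.75-fold difference with a log2 fold change of 0.81 ± 0.08 (SE), with an adjusted p of 7.85e-05. With quantile normalisation, which forces all libraries onto one distribution, the log2 fold change was 0.24.

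mt-Nd2 and mt-Nd4, 2 further membrane subunits of the proton-pumping arm, behaved in the same direction. mt-Nd2 (positions 3914 to 4951) was at 705, 825 and 733 FPKM in the PBS libraries and at 1293, 1157 and 1146 FPKM in the cisplatin libraries. Its log2 fold change was 0.67 ± 0.07 (SE, adjusted p = 0.000191). The groups of mt-Nd2 did not overlap, nor did those of mt-Nd4 (positions 10167 to 11544), which was at 566, 645 and 606 FPKM against 999.8, 871 and 888 FPKM. The log2 fold change of mt-Nd4 was 0.60 ± 0.07 (SE, adjusted p = 0.000242). Its copy Gm28439 took only 0.786% to 0.873% of the reads of the pair, and with those reads added the log2 fold change was still 0.60.

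mt-Nd5 and mt-Nd6 lie tail to tail on opposite strands with an overlap of 14 bases, and their differences were smaller. Whether the counting used strand was not given in the sources used here, so RNA of either strand at mt-Nd6 cannot be told apart. mt-Nd5, another proton-pumping subunit (positions 11742 to 13565), was at 732, 899.5 and 789 FPKM in the PBS libraries and at 1089, 976 and 959 FPKM in the cisplatin libraries, which do not overlap. Its log2 fold change was 0.32 ± 0.09 (SE, adjusted p = 0.0126). That call was lost where no filter was applied, and the value turned to -0.67 with scaling by Y-linked genes. mt-Nd6, the one mRNA on the minus strand (positions 13552 to 14070), was at 542, 699 and 583 FPKM against 831, 726 and 696 FPKM. Its highest PBS library lay just above its lowest cisplatin library, and its log2 fold change of 0.31 ± 0.11 (SE), with an adjusted p of 0.0369 did not pass in 8 of the 23 alternative fits against a change of 0 and was lower in 1, that with scaling by Y-linked genes (-0.69, adjusted p = 0.000273). Those that did not pass included the fits without PBS replicate 1 (adjusted p = 0.111), PBS replicate 3 (0.097), cisplatin replicate 1 (0.107) or cisplatin replicate 2 (0.0653).

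mt-Nd3, a small complex I subunit (positions 9459 to 9806), had the largest log2 fold change of the mRNAs, and its chromosome 1 copy had one of the opposite sign. mt-Nd3 was at 19.6, 18.6 and 26.3 FPKM in the PBS libraries and at 60.5, 56.7 and 40.4 FPKM in the cisplatin libraries, with a log2 fold change of 1.24 ± 0.18 (SE), with an adjusted p of 0.000768. Gm28438 was at 38.5, 34.2 and 47.1 FPKM against 19.6, 23.8 and 20.7 FPKM, a log2 fold change of -0.86 ± 0.12 (SE), with an adjusted p of 0.000677. Neither gene's groups overlapped, so the member rose where its copy fell. In reads, the pair summed to 356, 285 and 394 in the PBS libraries and 473, 459 and 350 in the cisplatin libraries, which do overlap. The copy held 64.8% ± 1.05 of these reads in the PBS libraries and 29.1% ± 4.71 in the cisplatin libraries (SD, n = 3 per group), a difference with an exact permutation p of 0.1, the smallest possible, and of 0.7 after adjustment over the 7 pairs of a member and its copy. With the copy's reads added to mt-Nd3, the log2 fold change was 0.27 ± 0.15 (SE) and did not pass (adjusted p = 0.152). This alternative was chosen after the data were seen. The part that the assignment of reads between the pair has in the difference was not tested.

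mt-Nd4l, the smallest complex I member (positions 9877 to 10173), did not pass the test. It was at 11.6, 7.78 and 8.25 FPKM in the PBS libraries and at 10.1, 41.0 and 17.5 FPKM in the cisplatin libraries. Its cisplatin libraries were widely scattered and overlapped the PBS range (log2 fold change 1.03 ± 0.45, SE, adjusted p = 0.0818), and only 36 to 200 reads stood behind a value. Its copy Gm10222 was nearly level, at 54 to 63 reads in the PBS libraries and 55 to 70 reads in the cisplatin libraries.

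**Figure D3:**
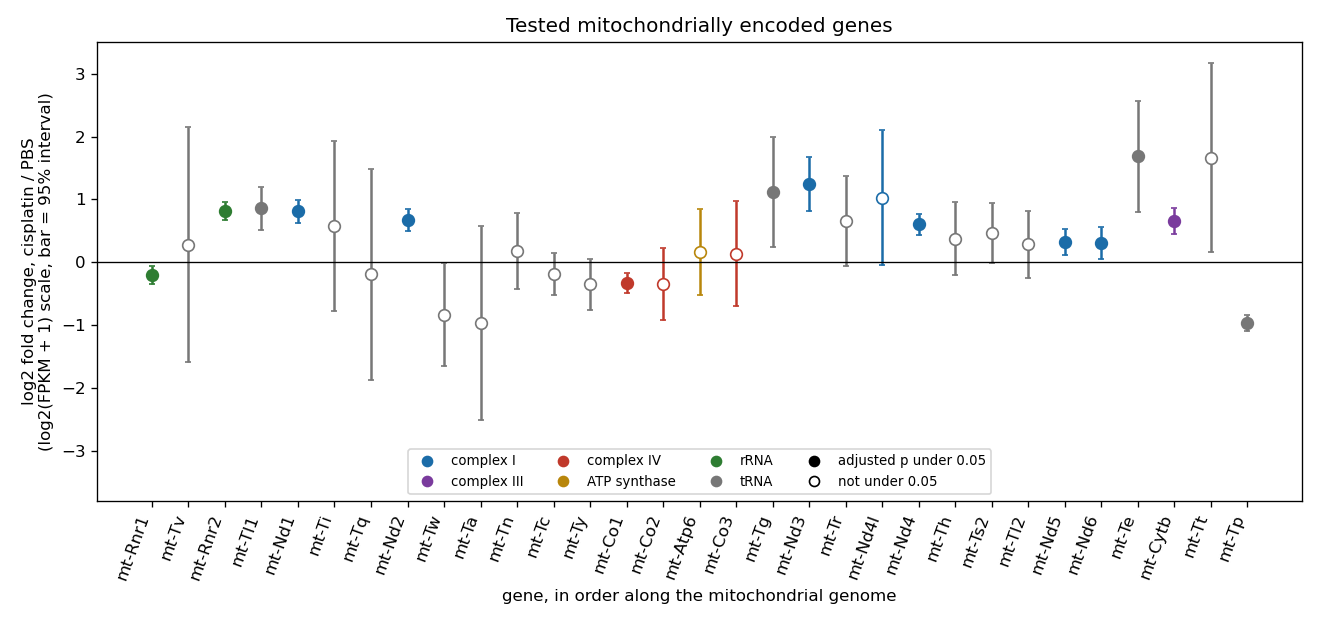
Log2 fold changes (cisplatin against PBS, log2(FPKM + 1) scale) of the 31 tested genes are plotted in genome order with 95% intervals, coloured by class and filled where the adjusted p was under 0.05. Filled complex I, complex III and mt-Rnr2 points lie above 0 and mt-Rnr1, mt-Co1 and mt-Tp below it; with scaling by Y-linked genes, the filled points above 0 turn negative except mt-Tg, mt-Nd3 and mt-Te.

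mt-Cytb encodes cytochrome b, the mitochondrially encoded subunit of complex III, which passes electrons on to cytochrome c, and it was higher in the cisplatin libraries. It spans positions 14145 to 15288 and was at 1286, 1499 and 1367 FPKM in the PBS libraries and at 2432, 2060.2 and 2064 FPKM in the cisplatin libraries. All cisplatin libraries lay above all PBS libraries, by 1.58-fold in the means, and the log2 fold change was 0.66 ± 0.08 (SE, adjusted p = 0.000405). It fell to 0.094 and did not pass with quantile normalisation (adjusted p = 0.289), and it turned to -0.34 with scaling by Y-linked genes (adjusted p = 0.00598).

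The mRNAs for complex IV, the cytochrome c oxidase that hands electrons to oxygen, held no member that was higher, and 1 of 3, mt-Co1, was lower. The share of lower members is near the 35.1% of all tested genes and no result about the class, and the other two members are nearly whole in their copies. mt-Co1, the catalytic subunit (positions 5328 to 6872), had the highest listed FPKM of the members in every library, among which the levels of those nearly whole in their copies cannot be compared. It was at 5975, 6667 and 5986 FPKM in the PBS libraries and at 5285, 4873 and 4701 FPKM in the cisplatin libraries. The groups did not overlap, the means were 6209 ± 396 and 4953 ± 300.5 FPKM (SD, n = 3 each), and the log2 fold change was -0.33 ± 0.07 (SE, adjusted p = 0.00382). This difference was negative in every alternative fit and lost its call only where no filter was applied (adjusted p = 0.41) or a log2 fold change over 1 was tested for. With quantile normalisation it was -0.71 (adjusted p = 5.75e-05). Its copy Gm29216 held 0.215% to 0.234% of the reads of the pair and had a like log2 fold change of -0.30 ± 0.05 (SE).

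The other 2 complex IV mRNAs, which are almost wholly shared with their copies, did not pass. mt-Co2, the subunit that binds cytochrome c (positions 7013 to 7696), was at 125, 67.3 and 68.9 FPKM in the PBS libraries and at 76.6, 62.1 and 59.1 FPKM in the cisplatin libraries (log2 fold change -0.34 ± 0.24, SE, adjusted p = 0.244). PBS library 1 stood apart from its group. mt-Co3, a further core subunit (positions 8607 to 9390), was at 42.1, 88.9 and 42.7 FPKM against 57.6, 43.2 and 86.0 FPKM (log2 fold change 0.14 ± 0.35, SE, adjusted p = 0.745). In each group 1 library stood high, and the groups overlapped throughout.

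The 2 mRNAs for ATP synthase subunits gave no difference that could be resolved. mt-Atp6, part of the proton channel (positions 7927 to 8607), was at 55.6, 54.4 and 46.8 FPKM in the PBS libraries and at 94.5, 52.4 and 39.7 FPKM in the cisplatin libraries. The cisplatin libraries ran from below to above the PBS range (log2 fold change 0.16 ± 0.29, SE, adjusted p = 0.65). mt-Atp8 (positions 7766 to 7969), which overlaps mt-Atp6 by 43 bases, had 4, 1 and 2 reads in the PBS libraries and 1, 2 and 3 reads in the cisplatin libraries and was not tested.

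The 2 rRNAs differed in opposite directions. mt-Rnr1, the rRNA of the small mitochondrial ribosomal subunit (positions 70 to 1024), was at 1054, 1104 and 1156 FPKM in the PBS libraries and at 1038, 909 and 928 FPKM in the cisplatin libraries. Its highest cisplatin library lay just under its lowest PBS library, and the log2 fold change was -0.21 ± 0.06 (SE, adjusted p = 0.0215). That call was lost in 9 of 22 alternative fits: without PBS replicate 2 (adjusted p = 0.0506), PBS replicate 3 (0.0668), cisplatin replicate 2 (0.0727) or cisplatin replicate 3 (0.0707), with scaling by the total of recovered reads (0.114) or of nuclear reads (0.129), with quantile normalisation (0.0847), with no filter (0.156) and with the replicate block (0.0601). mt-Rnr2, the rRNA of the large subunit (positions 1094 to 2675), was at 511, 532 and 543 FPKM against 1011, 881 and 897 FPKM. Its groups were wide apart, at 1.76-fold, with a log2 fold change of 0.81 ± 0.06 (SE), with an adjusted p of 2.29e-05. The log2 ratio of mt-Rnr1 to mt-Rnr2 within a library was 1.04, 1.05 and 1.09 in the PBS libraries and 0.0375, 0.0452 and 0.0494 in the cisplatin libraries. The pair was chosen after the values were seen, and the exact permutation test gave p = 0.1, the smallest possible. This ratio does not depend on how libraries were scaled. The libraries were made with poly-T beads, which capture polyadenylated RNA, so an rRNA value here counts the part of that rRNA that the beads retained. The same holds for the tRNAs and mRNAs.

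Of the 22 tRNAs, which are 59 to 75 bases long and carry amino acids to the mitochondrial ribosome, 17 were tested, with 3 higher, 1 lower and 13 that did not pass, where 32.9% of all tested genes were higher and 35.1% lower. Fragments this short are poorly kept by size-selected libraries, and 7 of the 17 had a mean of fewer than 10 reads. Every tRNA is shorter than the windows used to measure sharing, so none has a value there. mt-Ts1, mt-Td, mt-Tk, mt-Tg and mt-Tr lie among the mRNAs with a chromosome 1 copy and had 0 to 10 reads in a library. mt-Tf, mt-Tv, mt-Ti, mt-Tq, mt-Tm and mt-Ta lie outside that stretch and had 0 to 8 reads. Whether chromosome 1 copies bear on the reads of the tRNAs in that stretch was not tested. The 3 tRNAs past the test with a mean over 10 reads are shown whole, 5′ to 3′ on their own strand, with the anticodon in capitals: mt-Tp (tRNA-Pro, chrMT:15356-15422, minus strand), mt-Te (tRNA-Glu, chrMT:14071-14139, minus strand) and mt-Tl1 (a tRNA-Leu, chrMT:2676-2750, plus strand).
mt-Tp: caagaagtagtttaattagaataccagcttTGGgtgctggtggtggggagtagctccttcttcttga
mt-Te: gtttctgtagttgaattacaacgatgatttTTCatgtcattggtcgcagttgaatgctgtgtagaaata
mt-Tl1: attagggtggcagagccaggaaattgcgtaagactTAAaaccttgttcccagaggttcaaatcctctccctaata

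mt-Tp was the one lower tRNA and had the highest listed FPKM of the tRNAs. It was at 571, 573 and 516 FPKM in the PBS libraries and at 271, 279 and 296 FPKM in the cisplatin libraries, from 536 to 677 reads and 307 to 328 reads. The groups lay far apart, at 1.96-fold, with a log2 fold change of -0.97 ± 0.06 (SE), with an adjusted p of 7e-06. It kept its direction and its call in all 22 alternative fits that tested against a change of 0. Its neighbour mt-Tt, and mt-Cytb before that, lie on the plus strand. Whether the counting used strand was not given in the sources used here, so RNA of either strand at mt-Tp cannot be told apart. This limit holds for every gene on the minus strand, for their share of reads and for the ratio of mt-Nd6 to mt-Nd5.

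mt-Tl1, which lies directly between mt-Rnr2 and mt-Nd1 with no base between them, was higher together with both. It was at 43.7, 59.9 and 39.6 FPKM in the PBS libraries and at 89.4, 79.6 and 88.8 FPKM in the cisplatin libraries (log2 fold change 0.86 ± 0.15, SE, adjusted p = 0.00167). Reads that span the joints of these genes in uncut RNA cannot be told from reads of the tRNA. mt-Te, on the minus strand between mt-Nd6 and mt-Cytb, was at 7.37, 5.58 and 8.41 FPKM against 12.8, 34.4 and 34.2 FPKM, from 6 to 9 reads and 15 to 39 reads. Its cisplatin libraries were uneven but all above the PBS libraries (log2 fold change 1.68 ± 0.37, SE, adjusted p = 0.0057).

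mt-Tg (tRNA-Gly) passed on very few reads, 5, 1 and 3 in the PBS libraries and 8, 9 and 5 in the cisplatin libraries. It lies directly between mt-Co3 and mt-Nd3, which both have a chromosome 1 copy, and whether a copy bears on its reads was not tested. Its log2 fold change was 1.11 ± 0.37 (SE, adjusted p = 0.031), and the call was lost in 7 of 20 alternative fits: without PBS replicate 3 (adjusted p = 0.0517), cisplatin replicate 1 (0.0829) or cisplatin replicate 2 (0.0925), with voom on the recovered reads (0.0831), with no filter (0.0843), with length correction by loess (0.120) and with scaling by Y-linked genes (0.449). mt-Tt (tRNA-Thr), at 1.69, 0.958 and 5.77 FPKM against 3.51, 16.4 and 13.6 FPKM, stood just outside the threshold (log2 fold change 1.67 ± 0.63, SE, adjusted p = 0.0505), and its groups overlapped.

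The remaining tested tRNAs did not pass. Those with more reads were mt-Tc at 141 to 210.2 FPKM over the 6 libraries (tRNA-Cys, log2 fold change -0.19), mt-Tl2 at 50.6 to 106 FPKM (the other tRNA-Leu, 0.28), mt-Tn at 46.2 to 96.3 FPKM (tRNA-Asn, 0.18), mt-Tw at 19.0 to 77.6 FPKM (tRNA-Trp, -0.84, adjusted p = 0.0663), mt-Ts2 at 15.2 to 35.1 FPKM (a tRNA-Ser, 0.47), mt-Th at 13.5 to 29.0 FPKM (tRNA-His, 0.38) and mt-Ty at 11.8 to 20.2 FPKM (tRNA-Tyr, -0.35). Those with fewer than 10 reads on average were mt-Tr at 2.49 to 8.90 FPKM (tRNA-Arg, 0.66), mt-Ta at 0 to 6.14 FPKM (tRNA-Ala, -0.97), mt-Ti at 0 to 4.26 FPKM (tRNA-Ile, 0.58), mt-Tv at 0 to 6.82 FPKM (tRNA-Val, 0.28) and mt-Tq at 0 to 4.54 FPKM (tRNA-Gln, -0.19). Groups overlapped in all of them except mt-Tr, whose adjusted p was 0.0892. Among the 5 untested tRNAs, mt-Tm had at most 4 reads and mt-Tk at most 1 read in a library. mt-Tf, mt-Ts1 and mt-Td had 0 reads in all 6 libraries, which allows up to 2.42 to 2.84 FPKM in a library (3 reads, counting error only).

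Taken over all 37 genes, the mitochondrial share of recovered reads was 1.69%, 1.88% and 1.71% in the PBS libraries and 2.22%, 1.98% and 1.96% in the cisplatin libraries. Every cisplatin library was above every PBS library, by little in the nearest pair, where the 95% Wilson intervals ran from 1.87% to 1.88% (PBS library 2) and from 1.95% to 1.96% (cisplatin library 3) and cover counting error only. The means were 1.76% ± 0.103 and 2.05% ± 0.144 (SD, n = 3 each), a difference of 0.294 percentage points (exact permutation test over libraries, two-sided, p = 0.1, the smallest that 3 against 3 allows, so it could not reach 0.05). As a share of summed FPKM the difference was 0.551 percentage points and the groups overlapped (exact p = 0.3). The share of reads is unaffected by the authors' scaling, whereas its denominator holds all nuclear RNA of all the cells collected.

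**Figure D4:**
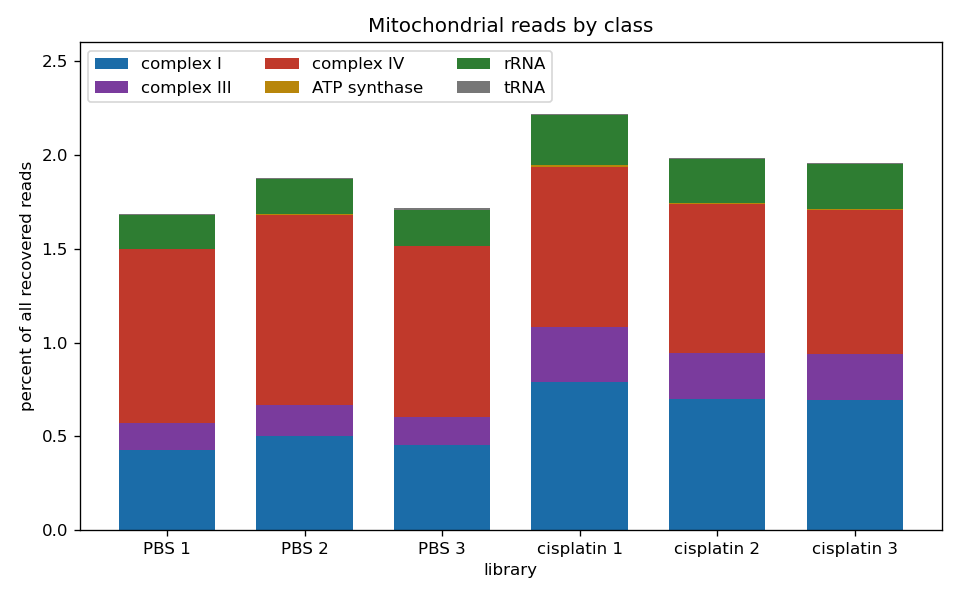
Stacked bars give the percentage of all recovered reads in each library that came from mitochondrially encoded genes, split by class (ATP synthase and tRNA reads are too few to see). The bars are taller in the 3 cisplatin libraries (1.96–2.22%) than in the 3 PBS libraries (1.69–1.88%), and their complex I portion is larger while their complex IV portion is not.

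The makeup of the mitochondrial reads also differed between groups. Complex I mRNAs took 25.4%, 26.6% and 26.3% of mitochondrial reads in the PBS libraries and 35.7%, 35.3% and 35.5% in the cisplatin libraries. Complex IV mRNAs took 54.7%, 54.1% and 53.0% against 38.6%, 39.9% and 39.2%, nearly all of it mt-Co1. The cytochrome b mRNA took 8.80% ± 0.163 against 12.6% ± 0.325 (SD, n = 3 per group). None of these groups overlapped, and since the shares sum to a whole they are not independent of each other. The rRNAs took 9.84% to 11.2% against 11.9% to 12.3%, and the tRNAs 0.388% to 0.418% against 0.280% to 0.313%. With FPKM in place of reads the rRNA difference shrank from 1.54 to 0.352 percentage points and the groups overlapped (exact p = 0.6). Without mt-Co1 and the other members that share at least 30% of their windows with a copy, an alternative added once the values were known, the complex I difference shrank from 9.40 to 1.63 percentage points with overlapping groups (exact p = 0.2), that of cytochrome b from 3.85 to 2.04, and that of the rRNAs turned to -3.23. For these 5 classes, over all members, the exact permutation test gave p = 0.1, the smallest possible, and 0.14 after adjustment over 7 shares. The ATP synthase share (0.182% to 0.223% against 0.145% to 0.301%, exact p = 0.9) and that of the 9 genes on the minus strand (1.97% to 2.19% against 2.13% to 2.20%, exact p = 0.3) overlapped between groups.

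Ratios of member to member, chosen after their values were seen and given as a description, differed in how far they shifted. The log2 ratio of mt-Co1 to mt-Nd1 was 2.16 to 2.25 in the PBS libraries and 1.03 to 1.12 in the cisplatin libraries. That of mt-Cytb to mt-Nd1 was 0.0305 to 0.0652 and then -0.120 to -0.0855, and that of mt-Nd2 to mt-Nd1 was -0.869 to -0.795 and then -0.997 to -0.953, shifts that were small although neither pair of groups overlapped. That of mt-Nd5 to mt-Nd4 was 0.370 to 0.479 and then 0.111 to 0.166, without overlap. That of mt-Nd6 to mt-Nd5, which are read from opposite strands, was -0.437 to -0.364 and then -0.462 to -0.390, with overlapping groups.

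The nuclear genes that transcribe, cut, stabilise, modify and translate mitochondrial RNA or maintain mitochondrial DNA were read from 6 lists of 52 genes, of which 50 were tested: 21 were higher and 8 lower in the cisplatin libraries, where 32.9% and 35.1% of all tested genes were, none reached a log2 fold change of 1 (range -0.78 to 0.94), and the median was 0.16. With scaling by Y-linked genes, none was higher and 43 were lower. In the transcription list, Tfb2m, a factor that opens mitochondrial promoters, was at 5.36 ± 0.162 FPKM in the PBS libraries and 9.58 ± 0.33 FPKM in the cisplatin libraries (SD, n = 3 per group; log2 fold change 0.73, adjusted p = 1.53e-05). Mterf3 (0.46, adjusted p = 0.000317) and the mitochondrial RNA polymerase Polrmt (0.31, adjusted p = 0.00792) were also higher. Tfam, which packages mitochondrial DNA and helps to start transcription, was lower, at 9.83 ± 0.544 against 8.26 ± 0.905 FPKM (log2 fold change -0.23, adjusted p = 0.0371). The other 5 genes of that list did not pass. Both genes that passed among those that cut the transcripts were higher, Trmt10c, a part of mitochondrial RNase P (0.51, adjusted p = 0.00373), and Elac2, which cuts the 3′ ends of tRNAs (0.41, adjusted p = 0.000151).

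The list of RNA stability, polyadenylation and decay held the most genes that passed among the 6 lists of machinery: 9 of 13 were higher and 3 lower, against 32.9% and 35.1% of all tested genes. Rexo2, an exonuclease that clears very short RNAs, was at 12.4 ± 0.898 against 24.6 ± 0.476 FPKM (SD, n = 3 per group; log2 fold change 0.94, adjusted p = 8.44e-06). Fastkd3 (0.85, adjusted p = 0.000898) and Tbrg4, also known as Fastkd4 (0.81, adjusted p = 1e-05), are members of the FASTK family that binds mitochondrial RNAs, and both were higher. Lrpprc, which stabilises mitochondrial mRNAs together with Slirp, was at 9.18 ± 0.677 against 14.2 ± 0.242 FPKM (log2 fold change 0.58, adjusted p = 0.000108), while Slirp was listed under 1 FPKM and not tested. The 3 lower genes were Pnpt1, the mitochondrial polynucleotide phosphorylase, at 23.1, 27.4 and 24.8 FPKM in the PBS libraries and 17.2, 15.9 and 14.8 FPKM in the cisplatin libraries (log2 fold change -0.62, adjusted p = 0.000349), and Grsf1 (-0.72, adjusted p = 9.21e-05) and Fastk (-0.55, adjusted p = 6.29e-05). Grsf1 marks mitochondrial RNA granules, and FASTK protein is known to act on the mt-Nd6 transcript. Grsf1 and Fastk are named because the count of lower genes is small, after their values were seen.

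The smaller lists held few genes that passed, and their shares are to be read against the 32.9% of all tested genes that were higher and the 35.1% that were lower. Of 5 genes that modify mitochondrial rRNA, the methyltransferase gene Mrm3 was higher (0.72, adjusted p = 6.78e-05) and Tfb1m was lower (-0.30, adjusted p = 0.0305). Of 9 translation factors, Gfm1 (0.42, adjusted p = 0.000314), Tsfm (0.35, adjusted p = 0.0311) and Tufm (0.18, adjusted p = 0.0165), all of them elongation factors, were higher and the other 6 did not pass, a share of higher genes near that of all tested genes and no result about this list. Of 10 genes for replication and maintenance of mitochondrial DNA, 3 were higher and 3 lower, again near the shares of all tested genes, among them the nuclease gene Mgme1 (0.82, adjusted p = 1.45e-05), the nucleoside kinase gene Dguok (-0.78, adjusted p = 8.57e-05) and Primpol (-0.63, adjusted p = 0.000109). On the nuclear side of biogenesis, Pprc1, a coactivator of the PGC-1 family, was at 6.45 ± 0.662 against 13.5 ± 0.329 FPKM (SD, n = 3 per group; log2 fold change 0.97, adjusted p = 2.17e-05), and Gabpb1 was also higher (0.22, adjusted p = 0.0163). Ppargc1b did not pass (0.28, adjusted p = 0.0566). Ppargc1a, the gene of PGC-1α itself, was under the filter and not tested, at 1.32, 1.24 and 0.959 FPKM in the PBS libraries and 0.517, 0.379 and 0.312 FPKM in the cisplatin libraries, and is named after its values were seen.

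**Figure D5:**
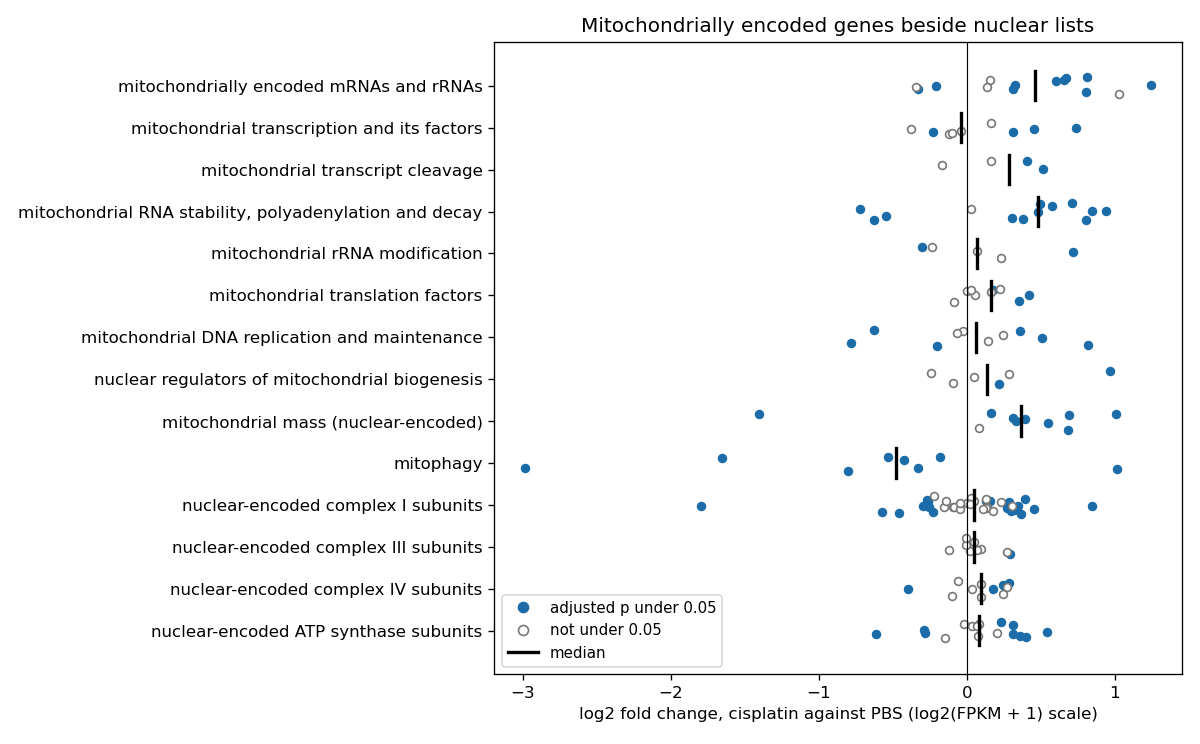
Each point is the log2 fold change of a tested gene (cisplatin against PBS, log2(FPKM + 1) scale), filled where the adjusted p was under 0.05, and black lines are medians, for the mitochondrially encoded mRNAs and rRNAs and for each nuclear list. The median is 0.48 in the RNA stability list, -0.48 in the mitophagy list and between 0.046 and 0.097 in the 4 lists of nuclear-encoded subunits; scaling by Y-linked genes moves the median of all tested genes to -0.83.

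Nuclear genes often used as measures of mitochondrial mass were higher in 8 of 10, where 32.9% of all tested genes were. Hspd1, the matrix chaperonin, was at 85.6 ± 3.53 against 173 ± 6.88 FPKM (SD, n = 3 per group; log2 fold change 1.01, adjusted p = 2.14e-06), and Tomm40, the channel through which proteins enter, was also higher (0.69, adjusted p = 0.000117). Vdac1, the main outer-membrane channel for metabolites, was lower, at 179 ± 8.27 against 66.9 ± 1.3 FPKM (log2 fold change -1.40, adjusted p = 3.69e-07). Genes of mitophagy, the removal of mitochondria by autophagy, were lower in 7 of 8 tested, where 35.1% of all tested genes were. Bnip3, a receptor induced by low oxygen, was at 102 ± 1.15 against 12.1 ± 1.05 FPKM (log2 fold change -2.98, adjusted p = 8.76e-08) and Bnip3l at 81.9 ± 3.06 against 25.3 ± 1.63 FPKM (-1.66, adjusted p = 5.76e-07). The higher gene was Sqstm1, the adaptor p62, at 194 ± 7.19 against 394 ± 15 FPKM (1.02, adjusted p = 1.79e-06).

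Nuclear-encoded subunits of the same complexes went both ways. Of 73 tested, 21 were higher, 12 lower and 40 did not pass, and their median log2 fold change was 0.078. The share of higher genes was near the 32.9% of all tested genes and is no result about these subunits, and 35.1% of all tested genes were lower. For complex I, 11 of 37 nuclear subunits were higher and 8 lower, beside 6 of 7 and 0 of 7 mitochondrially encoded ones. Ndufv3 was at 34.1 ± 1.46 against 9.11 ± 0.28 FPKM (SD, n = 3 per group; log2 fold change -1.80, adjusted p = 2.08e-07), Ndufb1-ps was higher (0.85, adjusted p = 0.000195) and Ndufa6 lower (-0.57, adjusted p = 0.000462). For complex III, Uqcr10 was the 1 of 9 that passed (0.29, adjusted p = 0.0188). For complex IV, 3 of 11 were higher, among them Cox4i1 (0.28, adjusted p = 0.0028) and Cox6b1 (0.24, adjusted p = 0.00122), and Cox6c was lower (-0.40, adjusted p = 0.000184). For ATP synthase, 6 of 16 were higher and 3 lower, with Atp5g1 (0.54, adjusted p = 0.0011) and Atp5e (0.40, adjusted p = 0.0013) higher and Atp5g2 lower (-0.61, adjusted p = 6.18e-05). Whether nuclear and mitochondrially encoded subunits differ in their change was not tested.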

How the data were processed

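The deposited table holds FPKM per gene and library. Per the labels, the authors used fastp, HISAT2 2.0.5 and featureCounts 1.5.0-p3 on mm10, whereas the study's methods name LifeScope, with DESeq2 for the tests. Gene length times FPKM came out as whole multiples of a library-specific step (100% of values under 200 reads, within 0.01), and reads were recovered from that step. Their total fixes the precision of low genes: 1 read per kb was worth 0.0565 to 0.0645 FPKM. The read total that the FPKM had been divided by was 97.4% to 98.7% of the recovered one in PBS libraries but 103.7% to 104.1% of it in cisplatin libraries.

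Groups and replicate numbers follow the sample labels. Genes with at least 1 FPKM in at least 3 of 6 libraries were tested on log2(FPKM + 1) with limma 3.58.1 (lmFit, eBayes with trend, R 4.3.3), with group as the only term and Benjamini-Hochberg adjustment. The thresholds were an adjusted p of 0.05, alone and with a log2 fold change of 1. Shares were compared by two-sided exact permutation tests over libraries. The procedure was tested on simulated data. The members and lists were chosen with earlier results of these data known.

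All mt- genes are accounted for. From each nuclear list the text names up to 3 genes, first those past both thresholds by adjusted p and then the largest at an adjusted p under 0.05, and Polrmt, Tfam, Tfb2m, Lrpprc, Pnpt1 and Ppargc1b whatever their values. Coordinates are those of the table, which equal GENCODE M21 of GRCm38 for all 37 members. Sequences and shared windows come from GENCODE M21 transcripts. Alternatives were other pseudocounts, filters, scalings and models, the replicate block, leaving out each library, and, added after the data were seen, adding the reads of the chromosome 1 copies and leaving out members with at least 30% shared windows. The tested tRNAs, which are too short for a window, were all kept in that last alternative.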

Additional observations from a re-analysis of the deposited data

How the results depend on the processing

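The 31 tested members were compared under 24 alternatives, 22 planned and 2 added after seeing the data, which gave 705 values. Leaving out members with copies only dropped genes from the main fit, so the values that remained could not differ. Median-of-ratios scaling gave the same medians as the main fit. Both are included in the numbers of alternative fits given for single genes, where the gene had a value in them. Of the 705 values, 44 lost a call, 35 gained one and 13 changed sign with a call on either side. The other 613 kept their side of the threshold, 15 of these with a change of sign in a value that passed neither way. Of those 15, 12 came with length correction by loess or a library left out, in mt-Tv, mt-Tq, mt-Tn, mt-Co3, mt-Atp6 and mt-Tl2. The 13 changes of sign that carried a call came with scaling by Y-linked genes, which moved the median of all genes by -0.83: mt-Rnr2 -0.19, mt-Tl1 -0.13, mt-Nd1 -0.19, mt-Nd2 -0.33, mt-Tn -0.81, mt-Atp6 -0.82, mt-Co3 -0.84, mt-Nd4 -0.40, mt-Th -0.57, mt-Tl2 -0.70, mt-Nd5 -0.67, mt-Nd6 -0.69 and mt-Cytb -0.34. Under it 0 mRNAs were higher and 9 lower (7 and 1 as reported), 0 members higher and 18 lower (11 and 3), 0 past both thresholds (3), 0 machinery genes higher and 43 lower (21 and 8), and the medians were -0.53 for mRNAs (0.46) and -0.61 for machinery genes (0.16). limma treat, which tests for a log2 fold change over 1, called 0 in each of these counts. Without a filter 5 mRNAs were higher and 0 lower, 8 members were higher and 1 lower, and the mRNA median was 0.32. In that fit 2 members were higher past both thresholds. Among protein-coding genes alone 8 members were higher and 1 was lower. Length correction by loess gave 6 lower members and 5 lower machinery genes, a number also given by quantile normalisation, both totals of reads and voom. The mRNA median was 0.31 with quantile normalisation, 0.32 with copies' reads added and 0.66 without members with copies, where 0 mRNAs were lower. The machinery median was 0.20 with a pseudocount of 0.1, 0.33 with a filter at 5 FPKM, 0.29 with quantile normalisation, 0.24 with either total of reads, 0.29 with voom and 0.30 with loess.

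Leaving out each library in turn gave 2 to 6 lower members (6 without cisplatin replicate 1), mRNA medians of 0.40 to 0.57 and machinery medians of 0.14 to 0.20. The ATP synthase share difference ran from -0.033 to 0.045 percentage points and was -0.00078 without members with copies, where the rRNA share difference was -3.23 and the minus-strand difference -1.01; with FPKM in place of reads the minus-strand difference was -1.84. Same-numbered libraries did not deviate together over all tested genes (correlations -0.104, -0.0857 and -0.0235). This cannot exclude a shared effect that is small or limited to some genes, and the labels do not say whether the numbers mark pairs. With the replicate block, 6 mRNAs were higher and 1 lower, 12 members were higher and 2 lower, and 21 machinery genes were higher and 6 lower.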
